A study of Rattus norvegicus with 2 samples.

Results

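The expression of 10 genes that build, cut or protect the extracellular matrix was compared between cervical lymph nodes of stressed and unstressed rats. The genes were the secreted proteases Adamts1, Adamts4, Adamts5, Adamts9 and Adamts15, the hyaluronan synthases Has1 and Has2, the metalloproteinase inhibitors Timp1 and Timp3, and the metalloproteinase Mmp3. They were selected from their families with the difference between these same arrays known, so that their direction and size are given as a description and were not tested. All 10 were found by gene name among the 36174 named genes of the array, with 14 probes in 33 spots. Each group had 1 array, from male Sprague-Dawley rats of 10-12 weeks. The C group was not stressed. In the RS30 group the rats were held on their backs on a board by leg fasteners for 30 min. In both groups the nodes were taken after halothane and an overdose of pentobarbital. The restraint time comes from the paper, since the sample labels say only that the rats were restrained. The scan date precedes the paper's experiments, and the scanner model differs from the paper's. Whether the arrays come from the rats of that protocol was not resolved here. How many rats supplied the RNA of an array is not stated in the sources used here. With 1 array per group there is no replicate check, no p-value was computed, and the error given with each value covers the spot measurement only. Both arrays came from the same scan, and the scanner software marked 54.7% (C) and 54.9% (RS30) of the probes as well above background, called detected in what follows.

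ADAMTS proteases are secreted zinc enzymes. Adamts1, Adamts4, Adamts5, Adamts9 and Adamts15 encode members that cleave the large hyaluronan-binding proteoglycans versican and aggrecan. Hyaluronan synthases sit in the plasma membrane and extrude the long sugar chain hyaluronan, to which these proteoglycans bind. The TIMP proteins bind the active site of metalloproteinases; TIMP-3, which stays bound to the matrix, is also a strong inhibitor of ADAMTS-4 and ADAMTS-5. In a lymph node, matrix of this kind is laid down around the reticular fibroblasts, the vessels and the capsule.

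All 10 genes had a higher normalised signal on the RS30 array than on the C array. Of all 21096 genes screened, meaning genes detected on 1 or both arrays, 52.1% were higher on the RS30 array by any amount. By 2-fold or more, 6 of the 10 were higher, namely Adamts4, Has1, Adamts1, Has2, Adamts9 and Timp1, and 0 were lower. Among all screened genes, 3.46% were higher and 4.28% lower by that amount; because this difference was in view when the 10 were selected, nothing is read from the contrast between the shares. The median log2 difference (RS30 minus C, each array set to its own 75th percentile) was 2.02, or 4.06-fold, over the 10 genes and 0.016 over all screened genes. The difference of each of the 10 was at least 2.56 times its spot error. The arrays measure RNA of whole nodes, so that more cells of a type and more RNA per cell cannot be told apart.

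**Figure D1:**
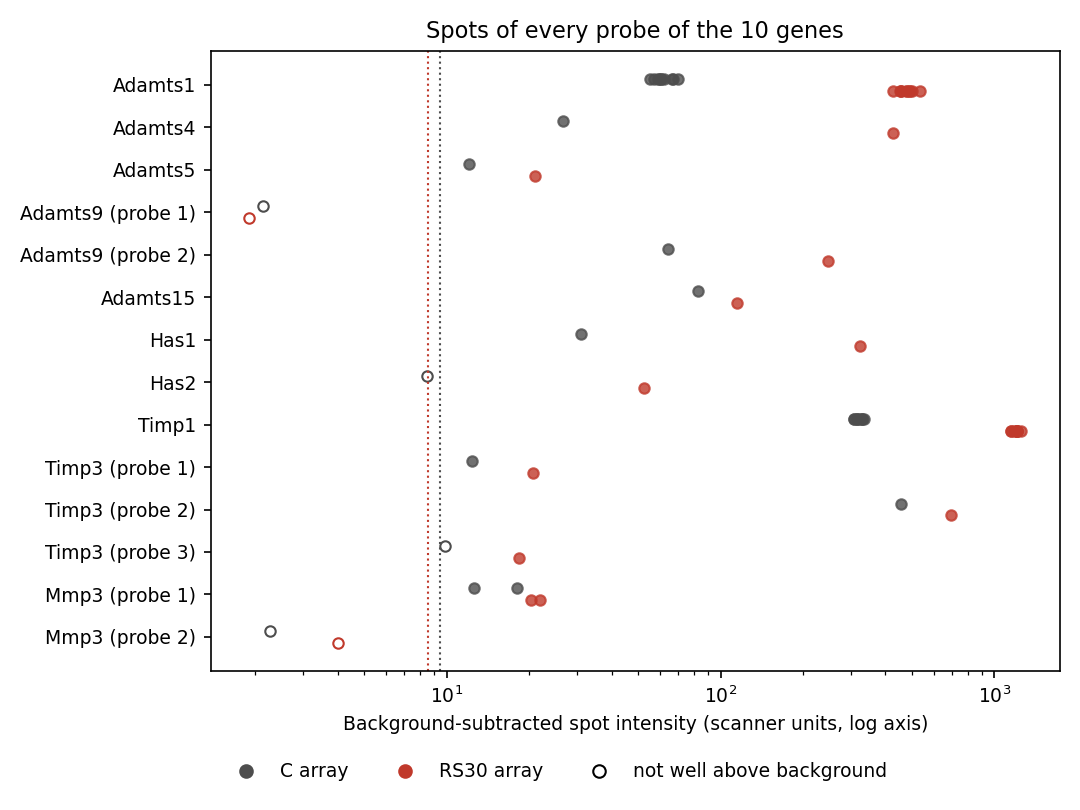
Intensity of each spot, background-subtracted and before scaling, for the 14 probes of the 10 genes on the C array (grey) and on the RS30 array (red), on a log axis. Open points were not detected, and the dotted lines mark the detection limit of each array, the dimmest signal of any detected probe, at 9.45 (C) and 8.52 (RS30). The 10 spots of Adamts1 lie between 55.3 and 69.8 on the C array and between 425 and 536 on the RS30 array.

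Adamts4 had the largest difference of the 10. ADAMTS-4, also called aggrecanase-1, cuts the core protein of aggrecan and versican. Its probe, at chr13:87151686-87151745 (forward strand), read 26.5 (C) and 426 (RS30) in its only spot. Positions of probes follow rn4, the rat build of the file headers. After scaling the RS30 value was higher by 17.2-fold (log2 difference 4.10 ± 0.24, spot error). By size it ranked 11 among all increases of screened genes. With limma's normexp background correction, which adds a constant to every signal and so pulls the ratio of dim spots towards 1, the log2 difference was 2.45.

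Adamts1 rests on the most spots. ADAMTS-1 likewise cleaves versican and aggrecan. The probe, at chr11:25434383-25434442 (reverse strand), was printed in 10 spots, all of them used. On the C array they averaged 61.6 (55.3 to 69.8, SD of log2 intensity 0.11, n = 10 spots), and on the RS30 array 475 (425 to 536, SD 0.093, n = 10 spots). The spots of the arrays do not overlap, and the lowest RS30 spot was far above the highest C spot. The RS30 value was higher by 8.26-fold (log2 difference 3.05 ± 0.066), rank 45 among the increases, and the log2 difference was 2.22 with normexp. The spots share 1 RNA sample per array, and their agreement says nothing of the spread between rats.

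Adamts9 encodes the protease closest to the worm gene GON-1 in structure, and its product acts on versican as well. It had 2 probes, which gave different pictures. The probe for the RefSeq transcript, at chr4:126996632-126996691 (reverse strand), read 64.2 (C) and 247 (RS30), a log2 difference of 2.04 ± 0.21, or 4.12-fold. The probe for a predicted transcript variant, from 127034765 to 127034824, was detected on neither array (2.13 and 1.90), so that it gave no difference. Averaging the probes therefore brought the log2 difference of Adamts9 to 0.99, just under 2-fold.

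Adamts5 and Adamts15 were both under 2-fold. Adamts5 encodes aggrecanase-2. Its probe, at chr11:25503663-25503722, had intensities of 12.0 and 21.1, close to the detection limit on both arrays, and a log2 difference of 0.91 (1.87-fold, spot error 0.34), which was 0.23 with normexp. Adamts5 lies next to Adamts1 in the RefSeq gene table of the rat assembly GRCr8, and the probes of these neighbours are 69220 bases apart in the coordinates of the files. Their differences, 3.05 for Adamts1 and 0.91 for Adamts5, lie apart by more than both spot errors. Adamts15, at chr8:30683388-30683447, had intensities of 83.0 and 115, a log2 difference of 0.56 (1.48-fold, spot error 0.21). It was detected on both arrays. Its difference and that of Mmp3, 0.58, were the smallest of the 10 and lie within their spot errors of each other, and with normexp Mmp3 and Adamts5 were below Adamts15 (0.37).

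Part of the probe is shown for the genes with the largest differences. These are the last 30 bases of each 60-base probe. Capitals mark a run of alternating G and A bases in Adamts1 and the polyadenylation signal AATAAA that closes the probe of Has1:
Adamts4: atacctcccttagaaatctgttgtaaggat
Has1: tttaatgtttgtactgtaagatatAATAAA
Adamts1: gtctgttcagctcttttactGAGAGAGAat
The files give a position for each probe but do not state in which exon or untranslated region it lies. Adamts1 was the only member whose probe held 6 or more alternating A and G bases. With probes of that kind left out, Adamts1 had no value, and 5 of the members were higher by 2-fold or more.

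Of the hyaluronan synthases, Has1 and Has2 were both higher by more than 2-fold. The probe of Has1, at chr1:56503386-56503445 (reverse strand), read 31.0 (C) and 323 (RS30). Has1 was higher by 11.1-fold (log2 difference 3.48 ± 0.22), rank 24 among the increases, and the log2 difference was 2.21 with normexp. Has2 encodes the synthase that makes most hyaluronan in the developing embryo. Its probe, at chr7:93230435-93230494 (reverse strand), read 8.49 (C), below the detection limit, and 52.4 (RS30), above it. Set against that limit, Has2 was at least 5.93-fold higher (log2 difference 2.57 ± 0.42). Here and below, "at least" refers to the measured signals and does not allow for their spot error. Has2 was the only one of the 10 genes detected on a single array. With normexp the value for Has2 was 0.72, under 2-fold. The third synthase, Has3, which was not among the selected genes, had intensities of 121 and 116 and a log2 difference of 0.036 (spot error 0.21), and did not differ beyond its spot error.

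Timp1 was the inhibitor with the larger difference. Its product inhibits most matrix metalloproteinases. The probe, on the X chromosome, was printed in 10 spots, of which 9 were used on each array, the same spot having been flagged as an outlier on both. Intensities averaged 320 on the C array (306 to 334, SD of log2 intensity 0.045, n = 9 spots) and 1196 on the RS30 array (1153 to 1252, SD 0.037, n = 9 spots). The spots of the arrays do not overlap. The log2 difference of Timp1 was 2.0 ± 0.068 (4.0-fold). With normexp it was 1.79.

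Timp3 had 3 probes, and they agree in direction. The probe with the highest signal, at chr7:19676183-19676242 (reverse strand), went from 456 to 695, a log2 difference of 0.71 (1.63-fold, spot error 0.20). A probe upstream of it in the direction of transcription, from 19679721 to 19679780, had intensities of 12.4 and 20.6, a log2 difference of 0.84 (spot error 0.34). Between them, from 19678024 to 19678083, the third probe read 9.85 (C), not marked as detected, and 18.4 (RS30). By the plain ratio of these signals it was 2.0-fold higher (log2 difference 1.0 ± 0.40). The 3 log2 differences lie within their spot errors of each other.

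Mmp3 encodes stromelysin-1, a metalloproteinase that cuts proteoglycans and fibronectin and activates other pro-enzymes. Its main probe, at chr8:4329056-4329115, was printed in 2 spots, with intensities of 12.6 and 18.1 on the C array and of 20.3 and 21.9 on the RS30 array. The log2 difference was 0.58 (1.5-fold, spot error 0.23), and 0.19 with normexp. The highest C spot lay close to the lowest RS30 spot. The second probe was detected on neither array (2.26 and 4.01).

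Probes of Timp1, Timp3 and Mmp3 are shown whole, since they differ in how they meet the genome. The probe of Timp1 covers 1004 bases of rn4 (chromosome X, 12542700 to 12543703) with its 60 bases, and the second probe of Mmp3 covers 466 bases (chromosome 8, 4325061 to 4325526), so that each joins separate stretches of the genome, while the upstream probe of Timp3 lies in 1 stretch:
Timp1: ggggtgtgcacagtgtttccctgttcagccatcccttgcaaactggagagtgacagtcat
Mmp3: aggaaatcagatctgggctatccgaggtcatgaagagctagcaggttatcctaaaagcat
Timp3: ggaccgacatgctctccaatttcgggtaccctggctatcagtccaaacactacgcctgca

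**Figure D2:**
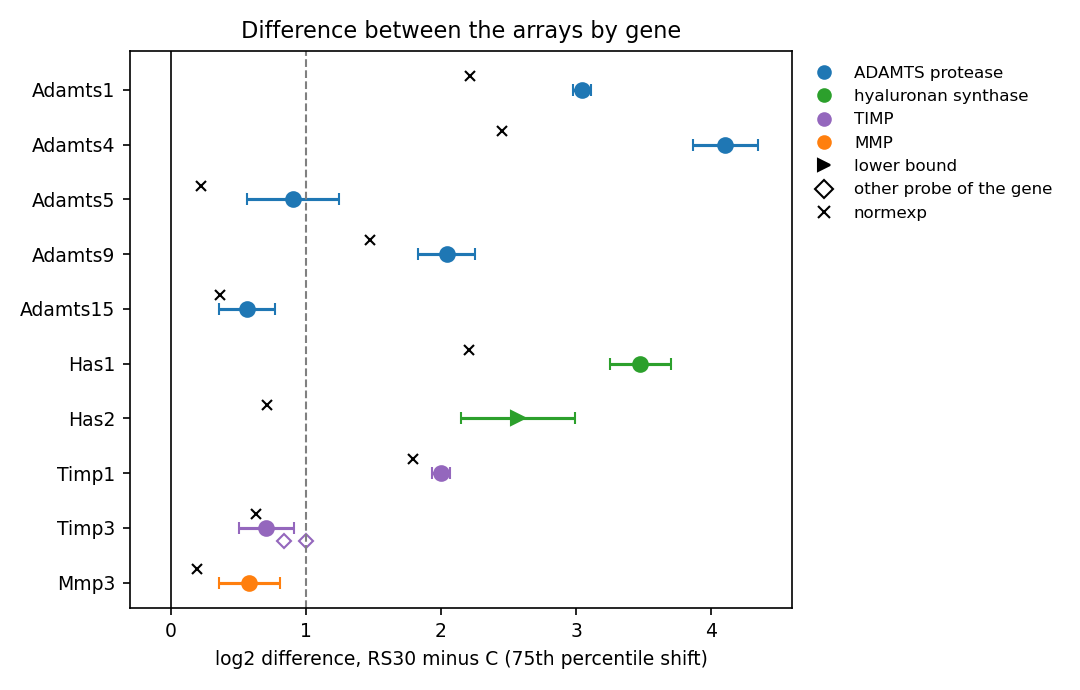
The log2 difference (RS30 minus C after the 75th percentile shift) of each gene by its brightest probe, with bars for the combined spot error; a triangle marks a lower bound, open diamonds other measured probes of the gene, crosses the value with normexp, and the dashed line 2-fold. Adamts4 (4.10), Has1 (3.48) and Adamts1 (3.05) lie farthest to the right, and all crosses lie left of their points but above 0.

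The other ADAMTS proteases were mostly near or below 0. Of the 14 further genes of the family, 12 were on the array and 10 were detected on 1 or both arrays. Of these, 0 were higher and 0 lower by 2-fold or more, and 7 of the 10 were below 0, with a median log2 difference of -0.31. The range ran from -0.97 for Adamts19, a lower bound on the size of the decrease, to 0.57 for Adamts2 (spot error 0.22), whose product trims procollagen. The spot error of Adamts19 was 0.89, which is that of the plain ratio of its signals (log2 value -2.14). The other measured probe of Adamts2 was at 0.85. The number lower by 2-fold was 1 without normalization or with the 75th percentile taken over spots, and with plain ratios in place of bounds 2 were lower and 1 higher. Adamts16 and Adamts20 were detected on neither array. Beside the counts of this list and of the gene and marker lists below stand the shares over all screened genes. These were 52.1% above 0, 3.46% higher by 2-fold or more and 4.28% lower by that amount. Among the ADAMTS-like proteins, which lack the protease domain, only Adamtsl1 and Papln were measured; Adamtsl1 was at least 2.58-fold higher, from an intensity of 4.85 to 22.8, with a log2 difference of 1.37 (spot error 0.67), which was 0.39 with normexp.

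Of the other matrix metalloproteinases, 16 of 21 on the array were measured, and 3 were higher by 2-fold or more. These were Mmp27 (log2 difference 1.21, spot error 0.23), Mmp23 (1.12, spot error 0.21) and Mmp2, the 72-kDa gelatinase (1.03, spot error 0.066). With normexp the values were 0.54, 0.73 and 0.87, all under 2-fold. The other probe of Mmp2 was at 0.90, also under 2-fold. Over all alternatives the count ran from 0, with normexp, to 5, with no filter on background. Mmp9, the gelatinase of neutrophils, had intensities of 45 and 39.1 (log2 difference -0.11, spot error 0.22), and Mmp14, which activates Mmp2, had 749 and 822 (0.23, spot error 0.065). Mmp10, a near relative of Mmp3, was detected on neither array.

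Of the inhibitors outside the selected genes, 5 of 7 were measured and 0 passed 2-fold in either direction. Timp2 had intensities of 4687 and 5225, a log2 difference of 0.26 (spot error 0.065). Timp4 had 12.9 and 22.3 (0.89, spot error 0.36), and Reck, a membrane-anchored inhibitor, 51.1 and 45.3 (-0.076, spot error 0.22). Timp1 was past 2-fold under each of the 13 alternatives that gave it a value, and Timp3 under none.

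Of the genes for hyaluronan synthesis and turnover beside Has1 and Has2, 11 were measured, of which 3 were higher by 2-fold or more and 0 lower, and the median was 0.072. Tmem2, which encodes a cell-surface protein that degrades hyaluronan, went from 122 to 484, 4.23-fold higher (log2 difference 2.08, spot error 0.21). Hyal2, which encodes a hyaluronidase held at the cell surface, went from 2093 to 4786 (2.45-fold, log2 difference 1.29), and Cemip, needed for hyaluronan breakdown in fibroblasts, from 197 to 377 (2.05-fold, 1.03). Cemip was under 2-fold with normexp (0.81), and the count was 2 in place of 3 with normexp, without normalization and with the 75th percentile taken over spots. Ugdh, which makes the UDP-glucuronic acid used in the synthesis, was at 0.89, under 2-fold. Hyal1, the lysosomal hyaluronidase, was detected on the C array only, with a log2 difference of -0.40 (spot error 0.45).

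Of the hyaluronan receptors and binding proteins, 14 were measured, 3 were higher by 2-fold or more and 0 lower, with a median of 0.077. Ptx3, whose product helps to build the hyaluronan-rich matrix around the egg, went from 25 to 119 (5.07-fold, log2 difference 2.34, spot error 0.25). Tnfaip6, which encodes TSG-6, the enzyme that transfers heavy chains onto hyaluronan, read 1.89 (C, not detected) and 20.4 (RS30). Set against the C detection limit, Tnfaip6 was at least 2.31-fold higher (log2 difference 1.21). Its spot error of 1.46 is that of the plain ratio of signals (log2 value 3.53), which uses the undetected C signal. Hmmr, which encodes a hyaluronan-binding protein of the mitotic spindle, was 2.51-fold higher (1.33, spot error 0.33). With normexp only Ptx3, at 1.18, was past 2-fold. Cd44, the main hyaluronan receptor of leukocytes, had intensities of 1477 and 1606 by its brightest probe (0.22, spot error 0.065), while its probes ranged from -0.22 to 0.33.

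The proteoglycans that ADAMTS proteases cut, with others of the matrix and the cell surface, were 11 measured genes, of which 3 were higher and 1 lower by 2-fold or more (median 0.40). Vcan, which encodes versican, read 8.52 (C, not detected) and 73.4 (RS30), at least 8.32-fold higher (log2 difference 3.06 ± 0.31). With normexp, Vcan was at 0.98. Sdc4, which encodes the cell-surface proteoglycan syndecan-4, went from 198 to 1009 (5.45-fold, log2 difference 2.45) and was at 2.12 with normexp. Bcan, not detected on the C array, was 2.93-fold higher by the plain ratio of signals, with a log2 difference of 0.37 under normexp. Ncan, a proteoglycan of the brain, was lower, from 3328 to 386 (log2 difference -3.01), and its main probe holds a run of alternating A and G bases. The other of its 2 probes was detected on neither array. With alternating A and G probes left out, Ncan therefore had no value. With its probes averaged, where the undetected probe enters, Ncan was not lower by 2-fold. Acan was detected on neither array.

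Collagens and other structural proteins were also higher on the RS30 array. Of 17 measured, all 17 were above 0, 8 were higher by 2-fold or more and 0 lower, with a median log2 difference of 0.91. Among all screened genes, 52.1% were above 0 and 3.46% higher by 2-fold or more. The list was chosen with earlier results of these data known, so nothing is read from the contrast. Fn1, which encodes fibronectin, had the largest difference (1.77, spot error 0.065), followed by Col5a1 (1.37), Col3a1 (1.33) and Col1a1 (1.24). With normexp all 17 were also above 0, with a median of 0.84.

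**Figure D3:**
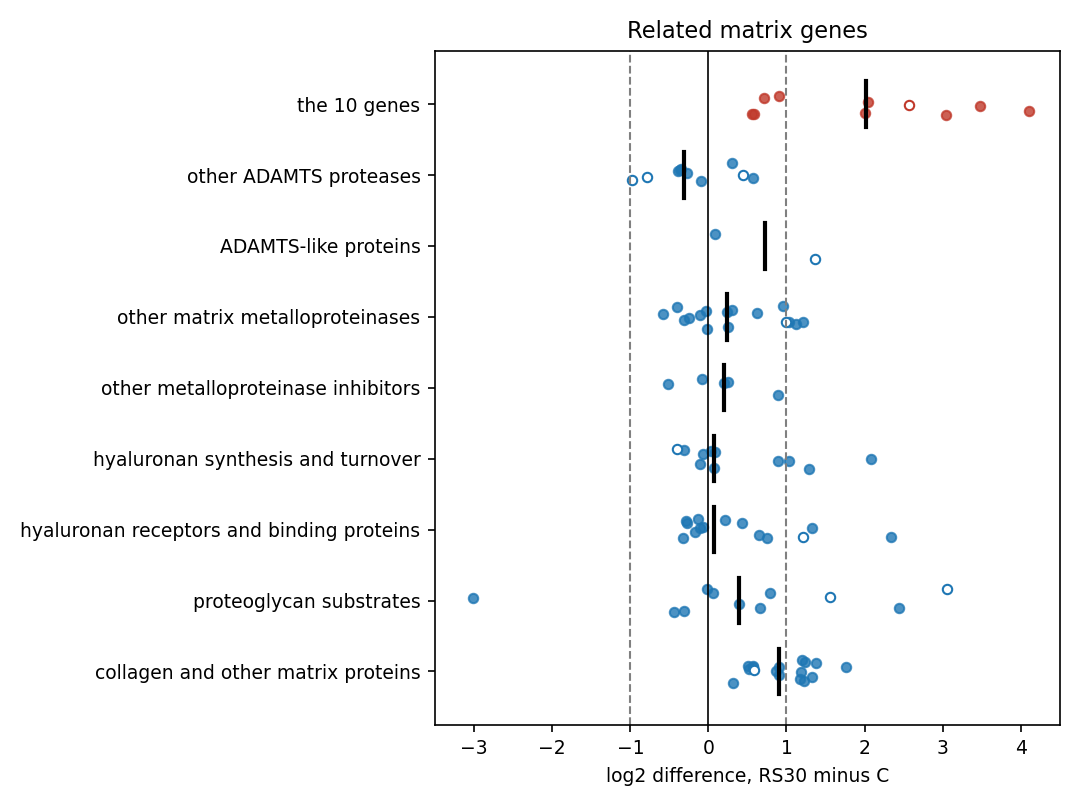
The log2 difference (RS30 minus C) of each measured gene in the related lists (blue) and of the 10 genes (red). Open points are genes detected on 1 array only, thick bars are medians, and dashed lines mark 2-fold in either direction. The 10 other ADAMTS proteases lie between -0.97 and 0.57, and the 17 collagens and other matrix proteins all lie above 0.

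The markers of the node's own lymphocytes were detected on both arrays, as the tissue label requires, and differed little. Of 9 lymphocyte markers, 0 passed 2-fold and the median log2 difference was -0.14; Cd3g had intensities of 13692 (C) and 11604 (RS30), and Cd3d of 13198 and 11126. The level of the list, summed relative to the 75th percentile of each array, was 294 (C) and 272 (RS30).

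Markers of some other cells had higher values on the RS30 array. Of 9 measured fat cell markers, 9 were above 0 and 7 were higher by 2-fold or more, with a median log2 difference of 1.80; Plin1 and Pck1 were detected on neither array, and the summed level was 51.5 (C) and 130 (RS30). The brightest fat cell markers on the C array had some of the smaller differences: Cfd went from 5251 to 10400 and Lpl from 2794 to 4355. The log2 differences ran from 0.57 for Lipe, whose other probe was at -0.098, to 3.24 for Lep. Adipoq was at 2.74 and Retn at 2.58. Of 9 fibroblast markers, 8 were above 0 and 4 past 2-fold (median 0.79, summed level 74.2 and 163). Those past 2-fold were Col1a1, Col1a2, Col3a1 and Pdpn, the first 3 of which also stand in the collagen list. Pdgfra was at -0.39. Pdgfrb (0.23), Thy1 (0.13) and Lum (0.060) were near 0, each with a spot error of 0.21. The brightest fibroblast markers were Col1a2, from 4821 to 10501, and Col1a1, from 3730 to 8236. The other probe of Pdpn was at 0.55. The 5 measured erythrocyte markers were all higher by 2-fold or more (median 2.60, summed level 52.8 and 316), while Epb42 and Slc4a1 were detected on neither array. The globin genes Hba1, from 5953 to 33805, and Hbb-b1, from 3747 to 20525, were the brightest of them, and Ahsp was under 2-fold with normexp (0.54). Of the neutrophil markers, S100a8 (3.99) and S100a9 (3.78) were higher by 2-fold or more, Csf3r and Cxcr2 were not, and the defining granule genes Mpo, Elane, Camp and Ngp were detected on neither array (summed level of the list 0.446 and 4.45).

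Smaller differences were found for the remaining lists. The median was 0.18 over 9 endothelial markers, of which Emcn (1.17, and 0.41 with normexp) passed 2-fold, 0.63 over 5 smooth muscle markers, -0.040 over 7 macrophage markers and 0.011 over 4 skeletal muscle markers. Summed levels were 29.8 and 32.9 for endothelial cells, 3.64 and 5.81 for smooth muscle, 224 and 216 for macrophages, and 0.812 and 0.941 for skeletal muscle. The brightest markers were Pecam1 (2242 and 2101) and Kdr (1923 and 2037) for endothelial cells, and Lyz2 (38651 and 35108) and Cd68 (2480 and 1915) for macrophages. For smooth muscle they were Tagln (298 and 492) and Des (251 and 321), and for skeletal muscle Tnnt3 (78.0 and 93.8) and Mylpf (53.3 and 59.3). None of the 6 salivary gland markers on the array was detected on either array. The part of fat, fibroblasts, blood or neutrophils in the differences of the 10 genes was not tested.

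**Figure D4:**
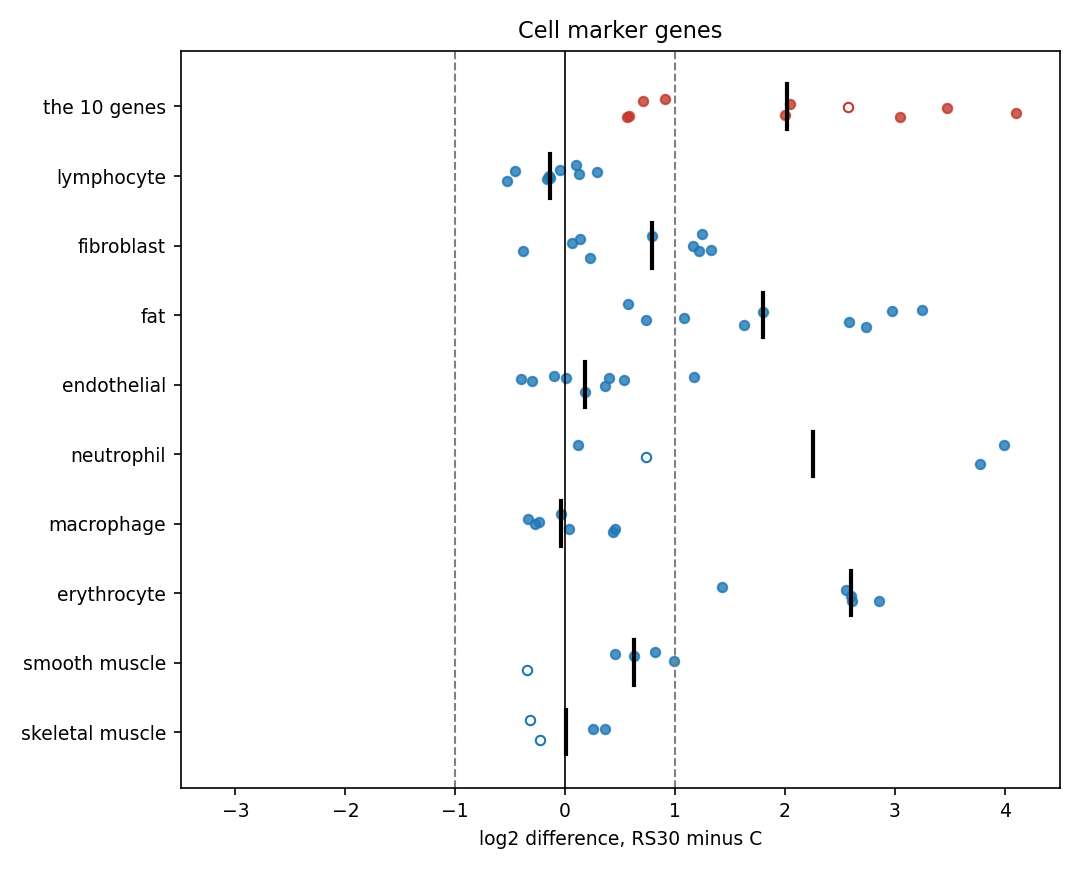
The log2 difference (RS30 minus C) of each measured marker gene by cell type (blue) and of the 10 genes (red); open points are lower bounds, thick bars medians, and dashed lines 2-fold in either direction. The fat (median 1.80) and erythrocyte (2.60) markers all lie above 0, and the lymphocyte, macrophage and endothelial medians lie between -0.14 and 0.18.

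Promoter sequence from RefSeq (assembly GRCr8, 250 bases before to 50 after the annotated start) was at hand for 7 of the 10 genes, which excludes Adamts5, Adamts15 and Has2. Such stretches were searched on both strands for the cAMP response element TGACGTCA, the AP-1 site TGANTCA, the TATA box TATAAA, and the CArG box and NF-kB sites by their usual consensus. These patterns were chosen after some of the sequences had been seen, and no matches overlap among those found. The cAMP response element stands in the promoter of Has1, beginning 83 bases before the start, and in 1.83% of all 33469 promoters. The AP-1 site stands in that of Mmp3, beginning 71 bases before the start, and in 7.33% of all promoters. TATAAA stands in those of Adamts1 (70 bases before) and Mmp3 (32 bases before), and in 14.2% of all. Among the 7, the NF-kB pattern was found in Adamts9 and in 7.51% of all promoters, and the CArG box in 0 of the 7 and in 1.64% of all. The stretches around the matches in Has1 (chr1:67378509-67378538, reverse strand), Mmp3 (chr8:12925199-12925227, forward strand) and Adamts1 (chr11:38427438-38427465, reverse strand) are shown with the match in capitals, because Has1 and Adamts1 were among the largest differences and Mmp3 among the smallest:
Has1: tcagacttgtcTGACGTCAgccctcctcca
Mmp3: ggaagcaattaTGAGTCAgtttgcgggtg
Adamts1: tccaatgtggcTATAAAggggcggccga
No motif of the search was shared by all genes past 2-fold that had a promoter sequence; a match is a run of letters and no evidence of binding.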

How the data were processed

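The authors made Cy3-labelled cRNA from the extracted RNA, hybridized the amplified product to SurePrint G3 Rat GE arrays and, per the submitters' processing notes, read the images with Agilent Feature Extraction 11.5.1.1. The deposited intensity values are background-subtracted and not normalized between arrays. They also deposited log2 values per probe, which matched the values computed here within 0.1 for 100% of 45598 probes. The medians of the deposited columns were -3.509 (C) and -3.539 (RS30), and that match leaves neither scale, centring nor direction unknown. Per the file headers both arrays shared 1 scan; its date precedes the period the paper gives for its experiments, and the scanner model differs from the one in the paper, which was not resolved here.

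Control probes and outlier spots (489 and 660) were left out, log2 intensities averaged per probe, and the 75th percentile (intensity 189 for C, 176 for RS30) subtracted. A probe counted as well above background when over 50% of its spots were marked so. A gene took its probe with the highest mean signal, and differences were counted from 2-fold. With 1 array above background, the fold was set against the detection limit of the other array. This gives a lower bound on the ratio of the measured signals, which does not allow for their spot error. Where the dim probe's own signal was higher than that limit, it was used instead, and the fold is then the plain ratio. Spot errors combine those of the scanner software on both arrays. For a lower bound, the spot error given is that of the plain ratio of signals.

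The genes, lists, motifs and rules were chosen with earlier results of these data known. Named beside the 10 genes were, per list, up to 4 genes past 2-fold in each direction, a preset set (Timp2, Mmp2, Mmp9, Mmp14, Has3, Hyal1, Hyal2, Cd44, Tnfaip6, Vcan, Reck) and the 2 brightest markers of a cell type; some genes outside this rule are named after their values were seen. All 10 genes matched RefSeq by accession (GRCr8). There were 14 alternatives; the marker lists were not run under them, except that each marker has a normexp value. Steps were tested on simulated arrays, both made from the C array with known changes. That checks the calculation only, and neither the spread between rats nor the detection marks of the scanner software. Tools were R 4.3.3, limma 3.58.1, Python 3.11.15, numpy 2.4.6, pandas 2.3.3 and matplotlib 3.10.9.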

Additional observations from a re-analysis of the deposited data

How the results depend on the processing

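No paired analysis was possible because C and RS30 were measured on single arrays, and no replicate could be omitted. Of 128 values of single genes under 13 alternatives (1 more concerned counts only), 0 changed sign, 117 stayed within the spot error and 11 moved beyond it, 8 of them with normexp. The number of the 10 genes higher by 2-fold or more was 6, or 5 with normexp (Has2 dropped out), with the mean over probes (Adamts9), with genes above background on both arrays only (Has2) and with alternating A and G probes left out (Adamts1); the number lower was 0 throughout. The median log2 difference moved from 2.02 to 1.1 with normexp, whose offset of 50 shrinks the ratios of dim spots by construction, and to 1.5 with the mean over probes, where the undetected probe of Adamts9 enters. The median of all screened genes moved by at most 0.1 log2 units under any scaling. Of 224 counts in the related lists, 206 stayed within 1.5 times and 18 did not; with normexp, genes past 2-fold upwards numbered 0 of the other metalloproteinases (against 3), 1 of the hyaluronan-binding genes (against 3) and 1 of the proteoglycans (against 3). Of 21096 screened genes, 730 (3.46%) were higher and 903 lower by 2-fold. The counts were 234 (1.11%) and 378 of 21099 genes with normexp, 2031 (5.61%) and 2148 of 36174 with no filter on background, 493 (2.57%) and 601 of 19214 with detection on both arrays, and 716 (3.54%) and 498 of 20252 without alternating A and G probes. The cause was not tested. Signals near background limit Adamts5, Has2 and Mmp3, and the number of arrays limits every comparison.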
